A study of Mus musculus with 6 samples.

Results

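The genes Cdx1, Cdx2, Isx, Gata4, Gata5, Gata6, Klf4, Klf5, Prdm1 and Maf encode transcription factors that set or maintain intestinal epithelial identity. Their chromatin accessibility was compared between RANKL-treated and control mouse small intestinal organoids. The assay was bulk ATAC-seq, which uses the Tn5 transposase to cut and tag open DNA. The measurement was the number of reads in fixed windows of 200 bp on the mouse genome (mm10, GRCm38). A window belonged to a gene when the nearest end of a protein-coding gene was that of the gene and lay within 50 kb of the window's centre. This rule gave 59 windows for the 10 genes, of 55056 windows in all and 38490 within 50 kb of any protein-coding gene end. Gata4 had 13 windows, Isx and Prdm1 9 each, Gata6 6, Klf4 5, Gata5 and Klf5 4 each, and Cdx1, Cdx2 and Maf 3 each.

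The 3 RANKL libraries came from organoids given 100 ng/ml recombinant RANKL for 6 days, after 3 days of 3 µM CHIR99021 (a GSK3 inhibitor) with 1.5 mM valproic acid (a histone deacetylase inhibitor) and 1 day in ENR. The 3 control libraries came from organoids kept in ENR for 6 days, a medium with EGF, Noggin and R-spondin 1. Both groups were the organoid line line26 wild type, Lgr5GFPDTR/+, which carries a GFP and diphtheria toxin receptor insertion at Lgr5 and was derived from a single female mouse. The replicates were 3 separate differentiation experiments, so the p-values measure the spread between experiments on 1 line and not between animals. The labels do not say in words whether the controls also received CHIR99021 and valproic acid. Their libraries carry the prefix CVENR, which the labels do not spell out. If the controls had no such pretreatment, its effects and those of RANKL cannot be told apart. The design compares RANKL with control, and the series title places it in a study of enterocyte and microfold (M) cell differentiation.

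CDX2 and its relative CDX1 are homeodomain factors that keep the epithelium intestinal, and ISX is an intestine-specific homeodomain factor downstream of CDX2. GATA4, GATA5 and GATA6 are zinc finger factors, of which GATA4 marks the proximal small intestine and is low in the distal ileum. KLF5 is known from dividing crypt cells, and KLF4 from differentiated villus cells and goblet cells, the mucus-secreting cells. PRDM1, also called BLIMP1, represses the adult enterocyte programme in the mouse intestine before weaning, and MAF acts in villus enterocytes on nutrient uptake genes.

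The promoter sequences of Cdx2, Gata5, Klf4 and Prdm1 are shown because a counted window lay over each of them, so that the accessibility values of these windows refer to known bases. They are RefSeq sequences of GRCm38.p6, 300 bases each, printed on the gene's strand, and the capitals mark the bases inside the counted 200-bp window. All 4 genes lie on the minus strand. The promoters are at chr5:147307200-147307499 for Cdx2 (166 bases inside the window), chr2:180334630-180334929 for Gata5 (154 bases), chr4:55532426-55532725 for Klf4 (193 bases) and chr10:44458699-44458998 for Prdm1 (120 bases).
Cdx2: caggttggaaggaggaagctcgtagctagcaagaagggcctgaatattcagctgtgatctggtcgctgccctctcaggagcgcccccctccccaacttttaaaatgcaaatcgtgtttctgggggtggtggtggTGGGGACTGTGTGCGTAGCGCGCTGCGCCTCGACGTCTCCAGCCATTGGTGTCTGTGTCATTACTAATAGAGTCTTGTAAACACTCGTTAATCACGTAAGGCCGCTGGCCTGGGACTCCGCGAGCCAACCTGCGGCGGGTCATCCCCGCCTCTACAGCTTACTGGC
Gata5: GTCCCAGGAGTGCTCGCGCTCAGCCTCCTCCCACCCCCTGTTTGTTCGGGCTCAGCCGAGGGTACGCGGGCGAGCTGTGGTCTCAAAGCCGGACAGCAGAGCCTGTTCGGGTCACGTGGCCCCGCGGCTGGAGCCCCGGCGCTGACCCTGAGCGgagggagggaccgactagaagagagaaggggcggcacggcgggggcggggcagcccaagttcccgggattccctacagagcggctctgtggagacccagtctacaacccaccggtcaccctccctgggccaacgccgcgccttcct
Klf4: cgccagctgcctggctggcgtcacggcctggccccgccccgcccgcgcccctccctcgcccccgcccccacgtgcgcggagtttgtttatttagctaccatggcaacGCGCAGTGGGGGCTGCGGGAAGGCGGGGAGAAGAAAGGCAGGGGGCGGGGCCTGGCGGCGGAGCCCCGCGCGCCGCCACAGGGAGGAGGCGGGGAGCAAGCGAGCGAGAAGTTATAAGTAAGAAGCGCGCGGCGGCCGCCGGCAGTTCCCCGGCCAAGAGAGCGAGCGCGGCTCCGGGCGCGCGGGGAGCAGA
Prdm1: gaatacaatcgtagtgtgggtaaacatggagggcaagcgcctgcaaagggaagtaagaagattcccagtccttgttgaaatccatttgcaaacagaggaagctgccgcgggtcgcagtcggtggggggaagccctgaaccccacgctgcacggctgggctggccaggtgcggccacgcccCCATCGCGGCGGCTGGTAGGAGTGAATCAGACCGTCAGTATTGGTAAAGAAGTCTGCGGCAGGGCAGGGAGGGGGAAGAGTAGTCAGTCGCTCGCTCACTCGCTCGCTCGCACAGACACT

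Of the 10 genes, 5 had a promoter in the RefSeq table, the remaining one being Isx, whose nearest window lay outside it. The GC content was 57.3% for Cdx2, 69.7% for Gata5, 58.7% for Isx, 74.3% for Klf4 and 59.7% for Prdm1, and the median over all 32851 promoters of the same length was 52.7%. Klf4 had 40 CpG dinucleotides, Gata5 26, Prdm1 20, Cdx2 18 and Isx 2, and the median promoter had 7. Motifs of the factors themselves were searched on both strands. The letters CATAAA, a core of CDX sites, were in none of the 5 and in 11.9% of all promoters. The letters AGATAA, a core of sites of the zinc finger factors GATA4 to GATA6, were in none of the 5 and in 11.2% of all promoters. The letters CCACCC, a core of KLF sites, were in Cdx2 and Gata5 and in 31.5% of all promoters, with no overlap with another searched motif. These matches describe letters in a 300-base window and say nothing of binding.

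The libraries differed in depth and in how focused their reads were. Total counts were 322173, 466521 and 828445 in RANKL libraries 1, 2 and 3, and 920681, 976881 and 455083 in control libraries 1, 2 and 3, so that 3 counts were worth 3.07 to 9.31 CPM (counts scaled to a common total per library). A second set of counts in 2-kb windows around the same centres was recovered from a deposited score. The central 200 bp held 33.9% to 36.5% of all 2-kb reads in RANKL libraries and 39.9% to 41.0% in controls. Over the 59 windows of the 10 genes the share was 29.8% to 35.3% in RANKL libraries and 36.3% to 37.3% in controls. The effect of this difference on the results was not tested, and results are given for both window widths. As a check of the cell type, 14 of 15 epithelial markers had gene sums deep enough to test. Of these 2 were higher (Esrp1 and Ocln) and 3 lower (Tjp1, Krt18 and Cdh17). The background was 6.97% of all genes tested called higher and 8.44% called lower. Of 24 markers of mesenchymal, endothelial, neural and immune cells 10 could be tested, and 1, Cdh5, was higher. Summed over the 16 of these markers with a window, levels were 366.5 to 400.4 CPM in RANKL and 338.4 to 407.3 CPM in control libraries. The Cdh5 value was 0.62 (log2) without control library 2, and its call ended with DESeq2 (adjusted p = 0.127), after thinning, and without control library 2 or 3 or RANKL library 1. The call of Ocln ended with DESeq2 (0.119), in 2 kb (0.477), and without RANKL library 1 or 3 or control library 2 or 3. That of Esrp1 ended in 2 kb (0.219), after thinning, and without RANKL library 3 or control library 1. The lower call of Tjp1 ended with windows assigned by nearest gene body (-0.27, edgeR adjusted p = 0.12) and within 200 kb (-0.26, 0.1185). Krt18 and Cdh17 were not called within 5 kb (0.652 and 0.384). Nor were they in 2 kb with loess offsets, a scaling described below (0.229 and 0.259). Of 11 tested M cell markers 5 were higher and 1 lower with RANKL, against the same background. Those with the smallest adjusted p were Marcksl1, Msln and Sox8, higher by 2.52, 2.85 and 3.41, and Atoh8, which fell by 0.62 on the log2 scale (edgeR adjusted p = 4.843e-11, 5.83e-07, 7.105e-05 and 0.00992). The Atoh8 call ended with DESeq2 (0.0742), after thinning, and without RANKL library 2 or control library 1.

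Summed over its windows, accessibility fell with RANKL at Isx and Klf4 and was called higher at none of the 10 genes (edgeR quasi-likelihood test, Benjamini-Hochberg adjusted p at or under 0.05 over 12465 genes). The background was 8.44% of all genes tested called lower and 6.97% called higher. At an unadjusted p under 0.05, 3 of the 10 genes were lower and 1 was higher, and DESeq2 called 1 lower and 0 higher. The fold changes of the 10 genes had a median of -0.23 on the log2 scale, and the median over all genes was 0.01. In 4 of the 10 genes (Isx, Klf4, Cdx1 and Prdm1) all RANKL libraries lay below all controls in CPM, an arrangement seen in 15.0% of all genes. The test of the 2-kb counts called 4 of the 10 lower (Isx, Klf4, Cdx2 and Prdm1) and none higher, with the same counts at an unadjusted p under 0.05 and with DESeq2, against 12.3% lower and 9.40% higher of 15592 genes. Among called gene sums the largest fall was 0.50 on the log2 scale, at Klf4. Averaged over its 200-bp windows, Cdx2 was the most accessible of the 10 genes (50.1 CPM in RANKL and 54.8 CPM in control libraries, group means). Klf5 (41.0 CPM in RANKL and 36.4 CPM in control) and Cdx1 (34.1 CPM in RANKL and 40.1 CPM in control) came next and changed places between the groups. The lowest was Gata5 in RANKL libraries (13.0 CPM, against 16.03 CPM in control) and Maf in controls (18.3 CPM in RANKL, against 12.3 CPM in control), with Gata6 (14.5 CPM in both groups) and Gata4 (17.4 CPM in RANKL and 16.8 CPM in control) close to them. This order was not tested. In bulk libraries, fewer cells of a type and lower accessibility per cell cannot be told apart.

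**Figure D1:**
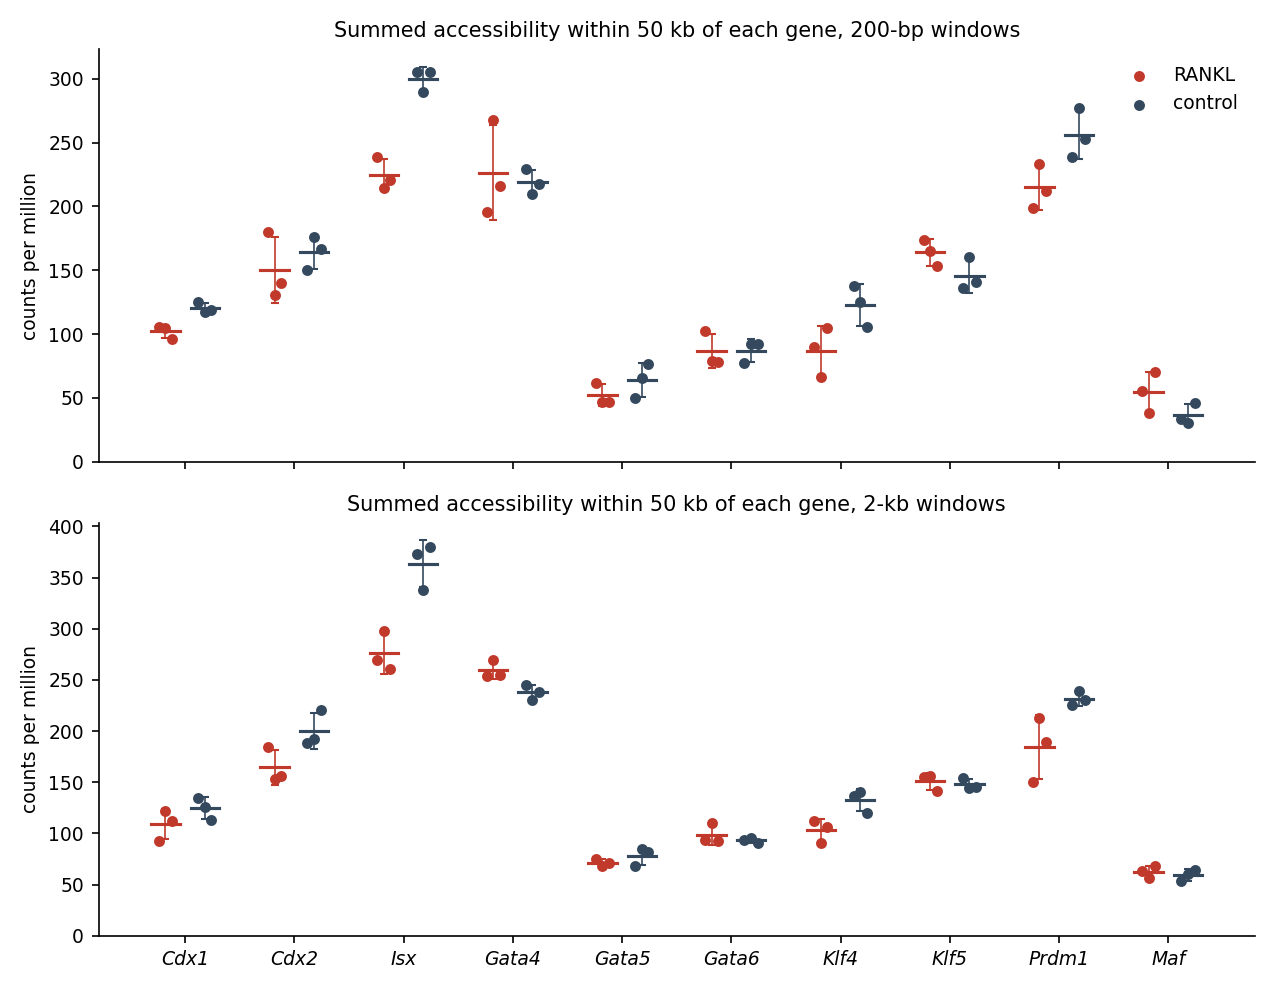
Summed accessibility of the 10 genes in CPM (vertical axis), for 200-bp windows (upper panel) and 2-kb windows (lower panel). Points are libraries, with RANKL left of control, horizontal lines are group means and bars the SD (n = 3 per group). At Isx the RANKL points lie apart from and below the controls, at 214.4 to 239.0 against 289.7 to 305.4 in 200-bp windows.

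Most of the 10 genes had high levels summed over their windows, and genes with the highest summed levels tended to be lower with RANKL. The summed level grows with the number of windows. Gata4, with 13 windows, was at the 99.2 percentile of genes tested, but had 17.4 CPM per window in RANKL and 16.8 CPM in control libraries. Gata6, Gata5 and Maf were at the 77.8, 56.2 and 42.8 percentile. By mean level, 7 of the 10 were in the top quintile of genes tested, and all genes of that quintile had a median log2 fold change of -0.11 with 17.8% called lower. In the 2-kb counts 8 of the 10 were in the top quintile, where the median was -0.16 and 31.6% were called lower. With loess offsets, a scaling that removes a trend of the fold change with level, none of the 10 gene sums was called in 200-bp windows, against 7.66% of all genes lower and 6.90% higher (edgeR). Klf4, Isx and Maf had an unadjusted p under 0.05 there. In the 2-kb counts with loess offsets none was called lower (1 at an unadjusted p under 0.05) and Gata4 was called higher, against a background of 9.09% lower and 9.79% higher.

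**Figure D2:**
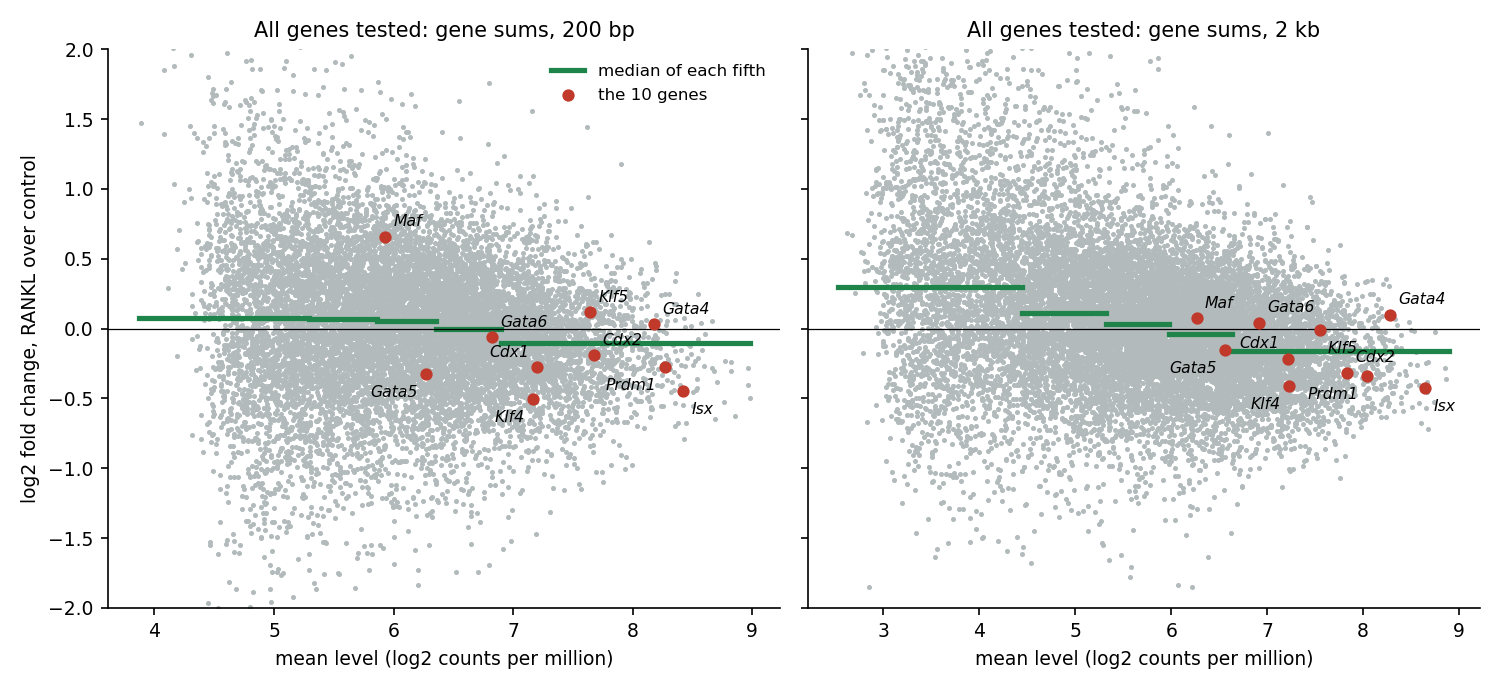
Log2 fold change, RANKL over control (vertical axis, drawn between -2 and 2, so genes beyond are not shown), against mean level in log2 CPM, for 200-bp (left) and 2-kb (right) gene sums. Grey points are all genes tested, green lines the medians of quintiles of genes by level and red points the 10 genes. The medians run from 0.08 in the lowest to -0.11 in the highest quintile at 200 bp, and from 0.30 to -0.16 at 2 kb.

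**Figure D3:**
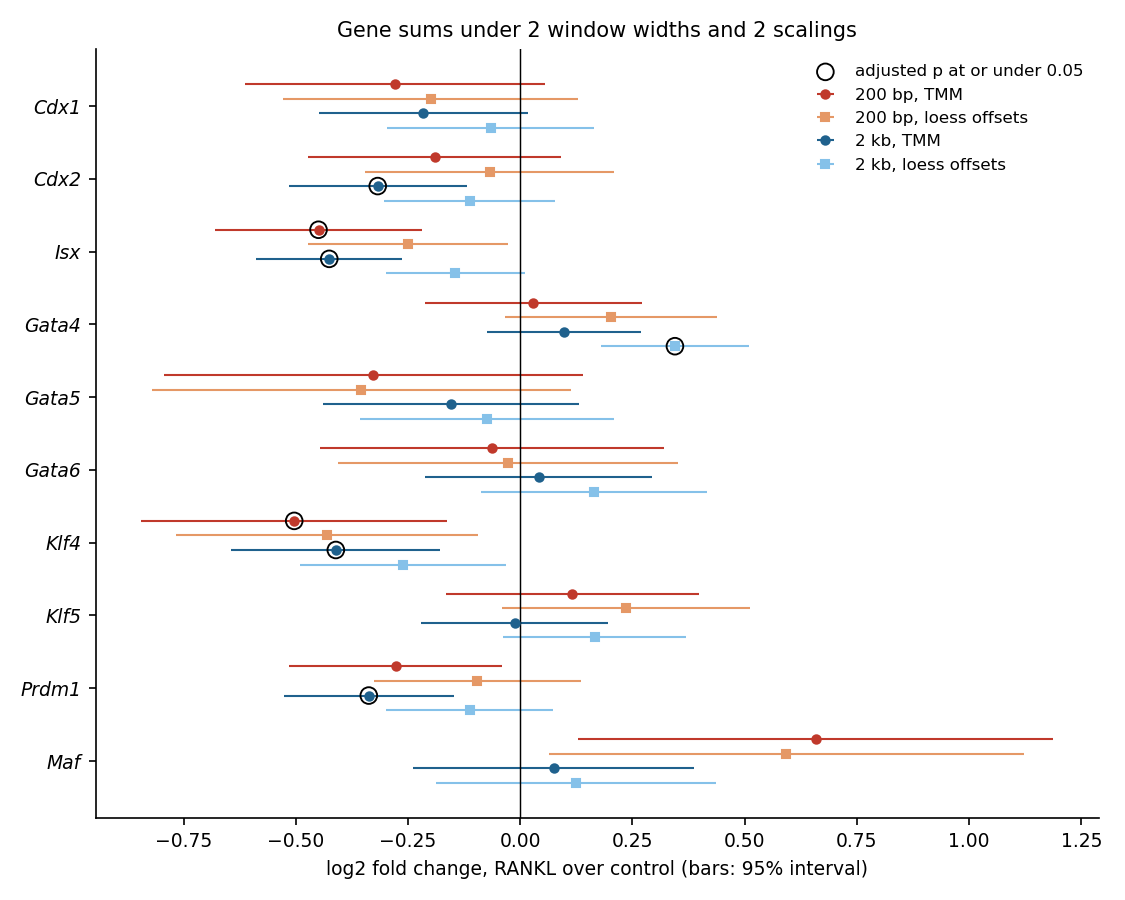
Log2 fold change of the gene sums, RANKL over control (horizontal axis), with 95% intervals, for 2 window widths and 2 scalings, TMM (trimmed mean of M-values, one factor per library) and loess offsets. Rings mark an edgeR adjusted p at or under 0.05. With TMM, Isx and Klf4 are ringed at both widths and Cdx2 and Prdm1 at 2 kb, and with loess offsets Gata4 at 2 kb is the only ringed gene.

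The individual windows are low in counts, and 31 of the 59 passed the filter at 200 bp. Of these 2 were lower and none was higher, against a background of 10.0% lower and 10.0% higher of 21618 windows, and 21 had a log2 fold change below 0. In 9 of the 31 all RANKL libraries lay below all controls and in 3 above, against 18.6% and 14.7% of all windows. At an unadjusted p under 0.05 5 were lower and 3 higher, and DESeq2 called 0. Within 1 kb of a gene end none of 7 tested windows was called (1 lower and 1 higher at an unadjusted p under 0.05, 0 with DESeq2). Among all windows within 1 kb 2.92% were lower and 9.22% higher at 200 bp, and among all windows 1 to 50 kb away 11.4% were lower and 9.73% higher. In the 2-kb counts 58 of the 59 windows could be tested, of which 9 were lower and 1 higher, with 10.2% lower and 8.37% higher of 49935 windows. With loess offsets the 2-kb counts had 3 lower and 2 higher (6.18% and 7.80% of all windows), so most of the lower calls at 2 kb were lost under that scaling. At 200 bp loess offsets gave 3 lower and 1 higher of the 31 (10.7% and 9.12% of all windows). The 3 still lower in 2 kb lay near Isx, Klf4 and Prdm1 and are described with these genes.

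**Figure D4:**
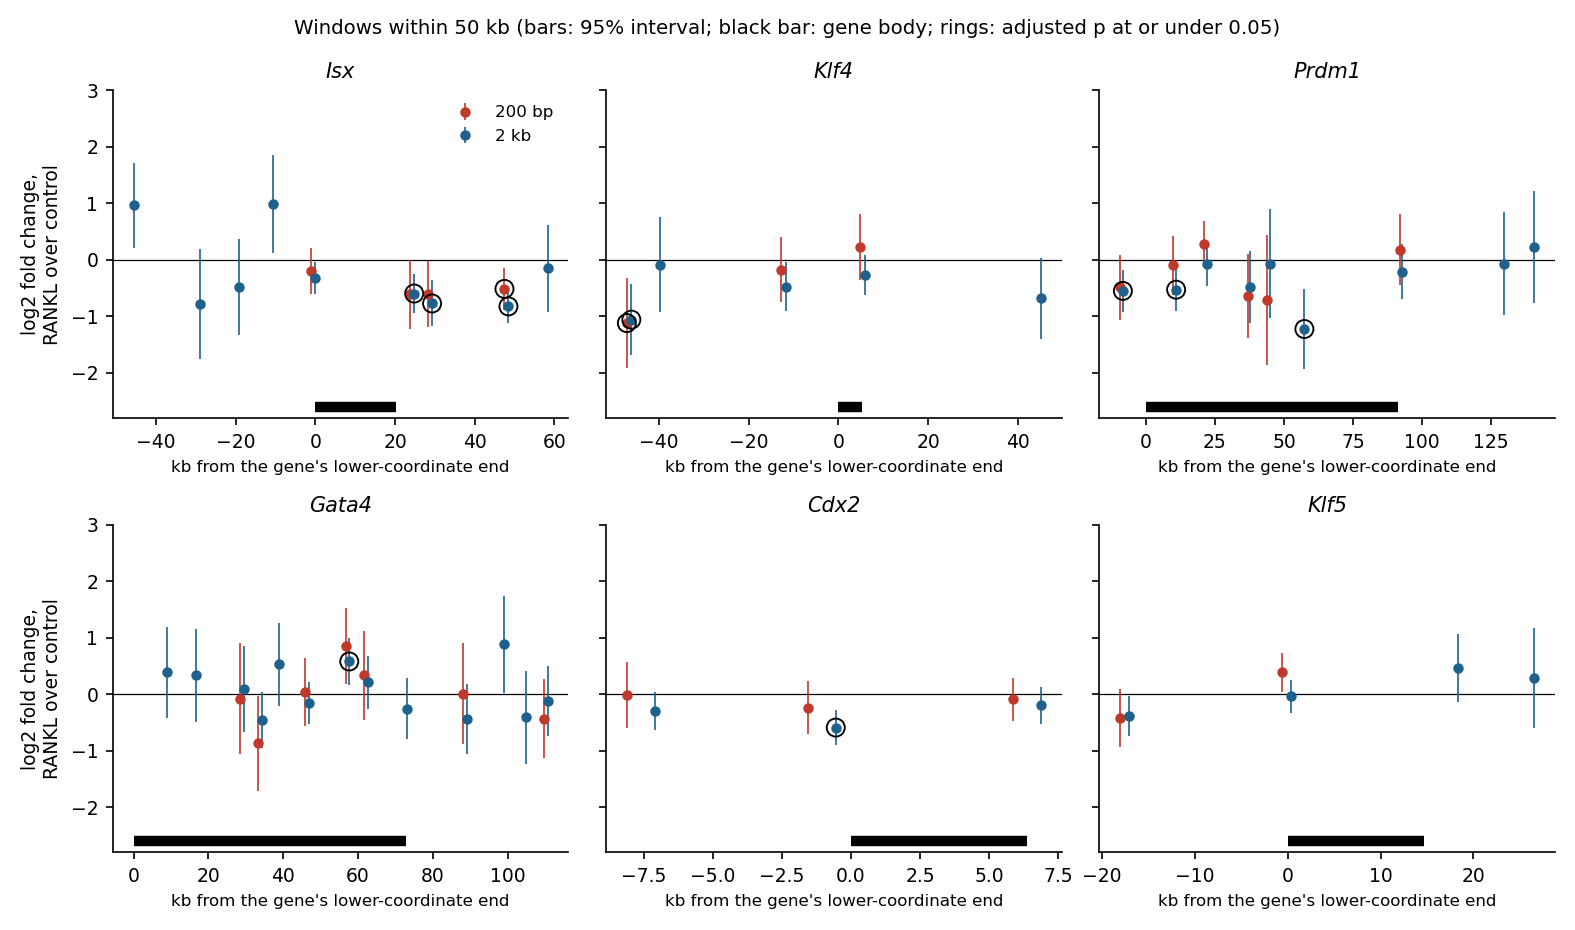
Log2 fold change of single windows, RANKL over control (vertical axis), by distance in kb from the gene's lower-coordinate end (horizontal axis), for 200-bp (red) and 2-kb (blue) counts with 95% intervals. Black bars are gene bodies and rings mark an edgeR adjusted p at or under 0.05. The ringed windows of Isx and Klf4 lie outside the gene bodies, those of Prdm1 inside and outside, and the 1 ringed window above 0 lies inside Gata4.

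Of the CDX genes, Cdx2 was called lower in the 2-kb counts alone and Cdx1 in neither sum. Cdx2 (chromosome 5, 147300900 to 147307249) had gene sums of 180.0, 130.8 and 140.0 CPM in RANKL libraries, against 149.9, 176.1 and 167.0 CPM in controls. The groups overlapped, because RANKL library 1 was the highest of the 6. The log2 fold change was -0.19 ± 0.14 (SE, edgeR adjusted p = 0.409), with a 95% interval of -0.47 to 0.09. In 2-kb windows Cdx2 had 184.5, 152.7 and 155.9 CPM in RANKL libraries, against 188.2, 191.9 and 220.2 CPM in controls. Here all RANKL libraries lay below all controls, and Cdx2 fell by 0.32 ± 0.10 on the log2 scale (SE, edgeR adjusted p = 0.0137). The 2-kb call at Cdx2 ended with loess offsets (-0.11, adjusted p = 0.456) and without RANKL library 2 (0.0699), RANKL library 3 (0.0968) or control library 3 (0.0752).

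The Cdx2 start itself did not differ detectably between the groups. The window over the Cdx2 promoter printed above (147307166 to 147307365) had 86.9, 62.2 and 60.4 CPM in RANKL libraries, against 74.9, 67.6 and 81.3 CPM in controls. These values overlapped, with a log2 change of -0.09 ± 0.20 (SE, edgeR adjusted p = 0.799). The 1 Cdx2 window called lower in 2 kb lay at the other end of the gene, at 147299751 to 147299950 and 1050 bp outside it. Its 2-kb counts fell by 0.59 ± 0.16 (SE, edgeR adjusted p = 0.00411), while the central 200 bp had -0.24 ± 0.24 (adjusted p = 0.525) and the 2-kb counts with loess offsets -0.30 (adjusted p = 0.163).

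Cdx1 (chromosome 18, 61018862 to 61036199) had gene sums of 105.5, 105.0 and 96.6 CPM in RANKL libraries, against 124.9, 117.7 and 118.7 CPM in controls. All RANKL libraries lay below all controls, yet the difference did not pass the test (log2 fold change -0.28 ± 0.17, SE, edgeR adjusted p = 0.282). Its most accessible window, 670 bp outside the gene, had 37.2, 47.2 and 50.7 CPM in RANKL libraries, against 64.1, 56.3 and 85.7 CPM in controls. The groups did not overlap there, with -0.44 ± 0.22 (SE, edgeR adjusted p = 0.159) in 200 bp. In 2 kb this window fell by 0.64 ± 0.16 (SE, adjusted p = 0.00281), a call that ended with loess offsets (-0.36, adjusted p = 0.107). The Cdx1 window at 61039416 to 61039615 leaned the other way (0.57 ± 0.46, SE, adjusted p = 0.416), was called higher in 2-kb counts with loess offsets alone (0.67, adjusted p = 0.0474), and lay nearest to the body of the predicted gene Gm52351.

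Isx, whose product represses the beta-carotene cleaving enzyme gene Bco1 and the carotenoid receptor gene Scarb1, had the smallest adjusted p of the 10 genes. The Isx gene (chromosome 8, 74873174 to 74893506) had gene sums of 239.0, 214.4 and 220.9 CPM in RANKL libraries, against 305.2, 289.7 and 305.4 CPM in controls. The highest RANKL library lay below the lowest control. Isx fell by 0.45 ± 0.12 on the log2 scale (SE, edgeR adjusted p = 0.00244), and without each library in turn the value was -0.49 to -0.43 with adjusted p of 0.00247 to 0.0257. In 2-kb windows it fell to 269.3, 298.1 and 260.2 CPM in RANKL libraries, against 373.3, 337.6 and 380.2 CPM in controls (log2 fold change -0.43 ± 0.08, SE, edgeR adjusted p = 3.764e-05). With loess offsets Isx was not called at either width (-0.25, adjusted p = 0.122 at 200 bp and -0.14, adjusted p = 0.201 at 2 kb).

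All Isx windows called at either width lay on the 3′ side of the gene. The window at 74921034 to 74921233, 27627 bp beyond that end, was at the 99.2 percentile of control levels over all windows. It had 65.2, 79.3 and 56.7 CPM in RANKL libraries, against 99.9, 87.0 and 107.7 CPM in controls, with no overlap between the groups. This Isx window fell by 0.51 ± 0.19 (SE, edgeR adjusted p = 0.0349) in 200 bp and by 0.82 ± 0.14 (SE, adjusted p = 1.433e-05) in 2 kb. It stayed called with loess offsets at both widths (adjusted p = 0.0141 and 0.00456). In 200 bp the call ended with the experiment number as a block (adjusted p = 0.0874), with DESeq2 (0.173), with no depth filter (0.0924), with a filter of 10 counts in 3 libraries (0.06), and without RANKL library 3 (-0.35, 0.312), RANKL library 1 (0.0599), control library 1 (0.0973) or control library 3 (0.074).

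Further Isx windows on that side were also lower in the wider counts. The window 8456 bp beyond the gene had 27.9, 15.0 and 36.2 CPM in RANKL libraries, against 40.2, 43.0 and 52.7 CPM in controls, and did not pass the test in 200 bp (-0.60 ± 0.30, SE, edgeR adjusted p = 0.142). In 2 kb it fell by 0.77 ± 0.20 (adjusted p = 0.00413), and the window 3962 bp beyond the gene fell by 0.59 ± 0.17 (adjusted p = 0.00939). Neither was called in 2 kb with loess offsets (adjusted p = 0.0606 and 0.183). The window nearest the Isx start, 466 bp upstream of it, had 52.8, 60.02 and 56.7 CPM in RANKL libraries, against 63.0, 61.4 and 85.7 CPM in controls. These RANKL values were all below the controls by a narrow margin (-0.19 ± 0.21, SE, edgeR adjusted p = 0.574). The 5 windows of Isx too shallow for the 200-bp test were not called in 2 kb.

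None of the GATA gene sums was called at 200 bp with edgeR (0 at an unadjusted p under 0.05 and 0 with DESeq2). Each 95% interval of a fold change holds for its own window width and scaling only. That of Gata5 at 200 bp was wide, from -0.79 to 0.14. Gata4 (chromosome 14, 63198914 to 63271712) had gene sums of 195.5, 267.9 and 216.1 CPM in RANKL libraries, against 229.2, 209.9 and 217.5 CPM in controls. The RANKL values spanned the controls on both sides, and the log2 fold change was 0.03 ± 0.12 (SE, edgeR adjusted p = 0.909), with an interval of -0.21 to 0.27. In 2 kb Gata4 had 253.5, 269.8 and 255.0 CPM in RANKL libraries, against 244.7, 230.7 and 237.8 CPM in controls, all RANKL libraries being above (0.10 ± 0.09, SE, adjusted p = 0.464). With loess offsets the 2-kb sum was higher by 0.34 ± 0.08 (SE, adjusted p = 0.0014), a value above the 200-bp interval.

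Of the Gata4 windows 1 was called, in 2 kb. The intragenic window at 63255982 to 63256181, 15631 bp from the nearer gene end, had 40.4, 38.6 and 32.6 CPM in RANKL libraries, against 17.4, 19.4 and 28.6 CPM in controls. All RANKL libraries were higher, but the 200-bp test was not passed (0.85 ± 0.35, SE, edgeR adjusted p = 0.0636). It rose in 2 kb by 0.58 ± 0.21 (SE, adjusted p = 0.0452) and with loess offsets at both widths (adjusted p = 0.0465 in 200 bp and 0.00573 in 2 kb). Without control library 3 the 200-bp value was 1.00 (adjusted p = 0.049). Another intragenic window of Gata4, at 63232637 to 63232836, had 15.5, 19.3 and 9.66 CPM in RANKL libraries, against 25.0, 26.6 and 28.6 CPM in controls. This one was lower in all RANKL libraries without passing the test (-0.87 ± 0.43, SE, adjusted p = 0.139). The window 122 bp inside the gene end was too shallow at 200 bp, with 12.4, 25.7 and 14.5 CPM in RANKL libraries, against 11.9, 17.4 and 15.4 CPM in controls.

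Gata5 and Gata6 each had 1 window deep enough to test at 200 bp, and most of their windows held few counts. Gata5 (chromosome 2, 180325088 to 180335503) had 62.1, 47.2 and 47.1 CPM in RANKL libraries, against 50.0, 65.5 and 76.9 CPM in controls, overlapping groups with a log2 change of -0.33 ± 0.24 (SE, edgeR adjusted p = 0.387). The 1 Gata5 window deep enough to test, 8651 bp upstream of the start, had 34.1, 17.1 and 31.4 CPM in RANKL libraries, against 34.8, 47.1 and 43.9 CPM in controls (-0.54 ± 0.30, SE, adjusted p = 0.213). The window over the Gata5 promoter printed above had 21.7, 17.1 and 6.04 CPM in RANKL libraries, against 13.0, 13.3 and 6.59 CPM in controls, and was too shallow to test at 200 bp. Gata6 (chromosome 18, 11052510 to 11085636) was the gene whose group means were closest, at 86.7 ± 13.6 CPM in RANKL and 87.2 ± 8.7 CPM in control libraries (SD, n = 3 per group), with a log2 change of -0.06 ± 0.20 (SE, edgeR adjusted p = 0.874) and an interval of -0.45 to 0.32. Its window 43 bp outside the gene end had 34.1, 49.3 and 50.7 CPM in RANKL libraries, against 54.3, 51.2 and 54.9 CPM in controls (-0.14, edgeR adjusted p = 0.741).

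Klf4 fell in its gene sum and Klf5 did not differ detectably. Klf4 (chromosome 4, 55527137 to 55532475) had 90.0, 66.4 and 105.0 CPM in RANKL libraries, against 137.9, 124.9 and 105.5 CPM in controls. The groups did not overlap, but RANKL library 3 and control library 3 were nearly level. The Klf4 sum fell by 0.50 ± 0.17 on the log2 scale (SE, edgeR adjusted p = 0.0306). In 2 kb it had 112.0, 90.2 and 106.4 CPM in RANKL libraries, against 136.2, 140.4 and 120.3 CPM in controls, a fall of 0.41 ± 0.12 (SE, adjusted p = 0.00628) that was not called without RANKL library 2 (0.0632) or control library 2 (0.0541). With the experiment number as a block the 200-bp sum had -0.51 (adjusted p = 0.0566). The call also ended with loess offsets (-0.43, adjusted p = 0.0712), with DESeq2 (0.149), and without RANKL library 2 (-0.35, 0.246), control library 1 (-0.41, 0.198) or control library 2 (-0.52, 0.0771).

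The Klf4 window called lower was distal, and its start was not called. The window at 55480415 to 55480614, 46623 bp from the gene on its 3′ side, had 15.5, 8.57 and 15.7 CPM in RANKL libraries, against 27.2, 29.7 and 37.4 CPM in controls. All RANKL libraries lay well below all controls. This Klf4 window fell by 1.12 ± 0.41 (SE, edgeR adjusted p = 0.0355) in 200 bp and by 1.06 ± 0.31 (SE, adjusted p = 0.0108) in 2 kb, and was called with loess offsets at both widths (adjusted p = 0.0478 and 0.0299). Its 200-bp call ended with DESeq2 (0.114), with no depth filter (0.071), after thinning to the smallest library (0.127), and without RANKL library 2 (0.155), RANKL library 3 (0.063), control library 2 (0.0699) or control library 3 (0.101).

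The window over the Klf4 promoter printed above had 31.0, 27.9 and 45.9 CPM in RANKL libraries, against 40.2, 31.7 and 21.97 CPM in controls. The groups overlapped, with a log2 change of 0.22 ± 0.30 (SE, edgeR adjusted p = 0.655). As a share of the 200-bp Klf4 counts, this start window held 34.5%, 41.9% and 43.7% in RANKL libraries, against 29.1%, 25.4% and 20.8% in controls. The 200-bp share was thus higher in all RANKL libraries, and no share was computed for the wider counts. Sums over windows within 5 kb of a Klf4 end had the opposite sign to the 50-kb sum (0.10, adjusted p = 0.878). The remaining tested Klf4 window, 12275 bp from the gene, had 40.4, 25.7 and 33.8 CPM in RANKL libraries, against 41.3, 40.9 and 28.6 CPM in controls.

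Klf5 (chromosome 14, 99298691 to 99313412) had 173.8, 165.1 and 153.3 CPM in RANKL libraries, against 135.8, 160.7 and 140.6 CPM in controls. The groups overlapped through control library 2, and the log2 fold change was 0.12 ± 0.14 (SE, edgeR adjusted p = 0.643), with an interval of -0.17 to 0.40. The Klf5 window 175 bp outside the gene end (99298417 to 99298616) held most of the gene's counts: 50.6% to 68.5% in RANKL libraries, against 50.4% to 59.4% in controls. It had 114.8, 83.6 and 105.0 CPM in RANKL libraries, against 68.4, 88.0 and 83.5 CPM in controls (0.39 ± 0.18, SE, edgeR adjusted p = 0.105). In 2 kb neither this window (-0.04, adjusted p = 0.908) nor the gene sum (-0.01, adjusted p = 0.951) was called.

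The Prdm1 gene sum was called lower in the wider counts alone. Prdm1 (chromosome 10, 44437174 to 44528558) had 198.7, 233.6 and 212.4 CPM in RANKL libraries, against 239.0, 277.4 and 252.7 CPM in controls. All RANKL libraries lay below all controls, but the difference did not pass the test over all genes (-0.28 ± 0.12, SE, edgeR adjusted p = 0.104). In 2 kb it had 150.5, 213.1 and 189.4 CPM in RANKL libraries, against 225.6, 239.2 and 229.9 CPM in controls, and fell by 0.34 ± 0.10 (SE, adjusted p = 0.00564). This call held without each library in turn (adjusted p of 0.00138 to 0.0428) and ended with loess offsets (-0.11, adjusted p = 0.441).

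The window over the Prdm1 promoter printed above (44458619 to 44458818) had 65.2, 72.9 and 62.8 CPM in RANKL libraries, against 55.4, 59.4 and 52.7 CPM in controls. Here all RANKL libraries were above all controls, without passing the test (0.28 ± 0.21, SE, edgeR adjusted p = 0.373). In 2 kb the groups overlapped and the value was -0.07 (adjusted p = 0.865). Its share of the Prdm1 counts was 32.8%, 31.2% and 29.5% in RANKL libraries, against 23.2%, 21.4% and 20.9% in controls, higher in every RANKL library. For the other 8 genes the share of the window nearest the start (or, with no RefSeq start in the table, nearest a gene end) overlapped between the groups. These shares are of 200-bp counts. They were not tested, and they were not computed for other genes or for the 2-kb counts. Over all genes, windows within 1 kb of a gene end held 50.3%, 48.4% and 48.2% of counts near genes in RANKL libraries. In controls they held 44.9%, 46.8% and 48.3%, so the groups overlapped. Of all tested windows within 1 kb, 9.22% were called higher and 2.92% lower in the 200-bp counts. In the 2-kb counts lower calls were the more frequent, with 267 higher and 1401 lower of 10138. Whether the higher shares at Klf4 and Prdm1 are particular to these genes was not tested.

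The window of Prdm1 with the largest 2-kb change lay inside the gene body at 44493947 to 44494146, 35199 bp upstream of the RefSeq start. It held 0, 1 and 2 counts in RANKL libraries, against 14, 17 and 8 counts in controls, and was below the depth filter at 200 bp. In 2 kb this Prdm1 window fell by 1.22 ± 0.35 (SE, edgeR adjusted p = 0.00865), and it was called with loess offsets (-1.19, adjusted p = 0.0151). The windows 8861 bp outside the gene and 10430 bp inside its end fell in 2 kb by 0.55 ± 0.19 and 0.53 ± 0.19 (SE, adjusted p = 0.0308 and 0.0428). Neither was called in 200 bp or in 2 kb with loess offsets. Another intragenic Prdm1 window, 44415 bp from the nearer gene end, was called lower with loess offsets in 200 bp alone (-1.96, adjusted p = 0.00716). It held 0, 1 and 13 counts in RANKL libraries, against 16, 7 and 9 counts in controls, which overlapped, and had -0.71 with TMM (adjusted p = 0.431) and -0.07 in 2 kb (0.952).

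Maf had the highest 200-bp fold change of the 10 genes and the lowest level in controls, and was not called. In RANKL libraries Gata5 was lower, and in 2 kb Gata4 had a higher fold change than Maf. Maf (chromosome 8, 115703253 to 115706894) had 55.9, 38.6 and 70.01 CPM in RANKL libraries, against 33.7, 30.7 and 46.1 CPM in controls. The groups overlapped through RANKL library 2 and control library 3, and the log2 fold change was 0.66 ± 0.27 (SE, edgeR adjusted p = 0.0779). Without RANKL library 2 it was 0.85 (adjusted p = 0.0334), and in 2 kb 0.07 ± 0.16 (SE, adjusted p = 0.79). Most of its counts came from the window 1067 bp outside the gene, with 46.6, 30.0 and 50.7 CPM in RANKL libraries, against 22.8, 29.7 and 28.6 CPM in controls. All RANKL libraries were higher there, RANKL library 2 by a narrow margin (0.74 ± 0.30, SE, adjusted p = 0.0645), whereas in 2 kb the value was -0.12 (adjusted p = 0.708). Without RANKL library 2 this window had 0.92 (adjusted p = 0.0375).

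Windows 50 to 200 kb from these genes were examined as an extension, with the nearest gene even less certain to be the one regulated. Of 40 such windows 17 could be tested at 200 bp, of which 3 were lower and 1 higher, and of all windows at that distance 20.3% were lower and 11.1% higher. In 2 kb 37 could be tested, of which 2 were lower and 3 higher, with 10.7% lower and 10.7% higher of all. A window 62933 bp from Klf4 on its 3′ side (55464105 to 55464304) had 6.21, 2.14 and 1.21 CPM in RANKL libraries, against 23.9, 21.5 and 17.6 CPM in controls. It fell by 2.95 ± 0.70 (SE, edgeR adjusted p = 0.000425), from 1 or 2 counts per RANKL library, and in 2 kb by 1.11 ± 0.35 (adjusted p = 0.0177). A window 197218 bp from Maf (115904013 to 115904212) had 34.1, 34.3 and 16.9 CPM in RANKL libraries, against 73.9, 58.3 and 43.9 CPM in controls. It fell by 1.19 ± 0.27 (SE, adjusted p = 0.000217) in 200 bp, and its 2-kb log2 change was -1.336 ± 0.20 (adjusted p = 5.035e-07), and it was called with loess offsets. Without RANKL library 3 the 200-bp value was -0.79 (adjusted p = 0.0647), and the call ended after thinning (0.134). The Maf window at 154579 bp was called lower with loess offsets in 2 kb alone (-1.55, adjusted p = 0.0211, against 0.0549 without them). A window 186233 bp from Klf4, upstream of its start, was too shallow at 200 bp and was higher in 2 kb by 1.46 ± 0.52 (SE, edgeR adjusted p = 0.0389), a call that ended with loess offsets (0.142). With windows out to 200 kb the Maf sum was called lower (-0.33, edgeR adjusted p = 0.0479), while that of Klf4 was no longer called (-0.10, 0.608). In these sums 9.29% of all genes were lower and 7.55% higher.

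Among far windows of Klf5, 1 was called higher and 1 lower in 200 bp, and 2 others were called higher in 2 kb. The window 72443 bp away had 24.8, 21.4 and 21.7 CPM in RANKL libraries, against 3.26, 11.3 and 8.79 CPM in controls, and was higher by 1.57 ± 0.53 (SE, edgeR adjusted p = 0.0205). That 80427 bp away had 6.21, 21.4 and 19.3 CPM in RANKL libraries, against 45.6, 27.6 and 41.8 CPM in controls, and fell by 1.08 ± 0.36 (SE, adjusted p = 0.0172). Both were separate between the groups, and neither was called in 2 kb (adjusted p = 0.149 and 0.0827). The first was not called with loess offsets (adjusted p = 0.128), with DESeq2 (0.0584), with the experiment number as a block (0.051) or without RANKL library 1 (0.0512), RANKL library 2 (0.0585), RANKL library 3 (0.0995) or control library 1 (0.191). The second was not called with DESeq2 (adjusted p = 0.092) or without RANKL library 1 (0.094) or control library 1 (0.137). The windows of Klf5 at 125307 and 139273 bp were too shallow at 200 bp, with 5, 6 and 17 and 9, 4 and 14 counts in RANKL libraries, against 2, 4 and 0 and 0, 4 and 0 counts in controls. In 2 kb they were higher by 1.66 ± 0.56 and 2.205 ± 0.62 (SE, edgeR adjusted p = 0.0288 and 0.00768), and with loess offsets only the more distant one was called (0.123 and 0.0443).

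Genes that work with these factors were counted in lists. The background was 8.44% of all genes lower and 6.97% higher in 200 bp, and 12.3% lower and 9.40% higher in 2 kb. In 2 kb with loess offsets it was 9.09% lower and 9.79% higher. In the top quintile of genes by level, 17.8% were called lower in 200 bp and 31.6% in 2 kb. The lists were not matched for level, so their lower calls may not be particular to them. Of 29 tested genes for other intestinal epithelial transcription factors 1 was higher and 6 were lower, with a median log2 fold change of -0.18. Onecut1 rose by 0.90 ± 0.19, while Atoh1, the secretory lineage factor, fell by 1.03 ± 0.15, Hnf4g, an enterocyte factor, by 0.53 ± 0.11, and Sox9, a crypt factor, by 0.72 ± 0.15 (SE, edgeR adjusted p = 0.000111, 7.741e-10, 5.655e-05 and 0.000107). Within 5 kb of a gene end Onecut1 had the opposite sign (-0.57), and Sox9 was not called (-0.06, adjusted p = 0.9). These are the 4 of the 7 called in 200 bp with the smallest adjusted p. In 2 kb 1 of 31 genes of this list was higher and 9 were lower. With loess offsets in 2 kb 6 were higher and 8 lower.

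Of 29 tested relatives in the CDX, GATA, KLF, MAF and PRDM families 2 were higher and 3 lower, and the median was 0.01. In 2 kb 4 of 30 were higher and 8 lower, with a median of -0.21, and with loess offsets 3 were higher and 5 lower. Klf13 fell by 0.65 ± 0.11, Prdm15 by 0.87 ± 0.17 and Trps1, an atypical GATA factor, by 1.28 ± 0.42 (SE, edgeR adjusted p = 5.83e-07, 1.923e-05 and 0.0213). Zfpm1, which encodes the GATA cofactor FOG1, rose by 0.47 ± 0.12 and Mafg, a small MAF protein, by 1.07 ± 0.40 (SE, adjusted p = 0.00257 and 0.0486). Within 5 kb Klf13 had 0.01 and Prdm15 -0.76, neither called (adjusted p = 0.99 and 0.106). The Mafg call ended without each library in turn and with the block (adjusted p = 0.0542). Klf13 had 231.5 to 254.5 CPM in RANKL libraries and 347.6 to 439.5 CPM in controls, a clear separation of the groups. The Zfpm1 call ended without RANKL library 2 (0.30, adjusted p = 0.163), and that of Trps1 without RANKL library 1 (0.0832), RANKL library 2 (0.0586), control library 2 (0.0933) or control library 3 (0.0776). The Trps1 call also ended with DESeq2 (0.0833), in 2 kb (-0.51, edgeR adjusted p = 0.164), within 200 kb (-0.21, 0.715) and by nearest gene body (-0.62, 0.248).

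Among genes known as intestinal targets, calls in 200 bp were on the lower side for genes activated by CDX2 and enterocyte genes around PRDM1. Of 17 tested genes activated by CDX2 none was higher (0 at an unadjusted p under 0.05 and 0 with DESeq2) and 4 were lower, with a median of -0.33. Sis, the brush border sucrase-isomaltase gene, fell by 0.70 ± 0.13, Mep1a, a brush border protease gene, by 1.05 ± 0.23, Cdh17, which encodes an intestinal cadherin, by 0.61 ± 0.14 and Tmprss15, the enteropeptidase gene, by 0.66 ± 0.20 (SE, edgeR adjusted p = 7.65e-06, 0.000243, 0.000604 and 0.0116). In 2 kb 2 of 21 were higher and 5 lower, with a median of -0.05 and a background of 12.3% lower and 9.40% higher. With loess offsets in 2 kb 1 was higher and 3 were lower. Of 13 tested enterocyte genes around PRDM1, which share Sis with that list, none was higher (1 at an unadjusted p under 0.05, 0 with DESeq2) and 3 were lower, Aqp1 by 0.74 ± 0.16 and Mptx1 by 1.06 ± 0.30 being the others (SE, edgeR adjusted p = 0.000176 and 0.00664). In 2 kb 1 of 16 genes around PRDM1 was higher and 3 were lower, with the same counts under loess offsets. Within 5 kb of a gene end neither Sis (-0.66, adjusted p = 0.127) nor Cdh17 (-0.38, 0.384) was called. The call ended for Tmprss15 without RANKL library 1 (-0.46, adjusted p = 0.12), control library 1 (0.0546) or control library 2 (0.064), and for Aqp1 without RANKL library 3 (-0.49, 0.0747). The Tmprss15 call also ended with DESeq2 (0.0833), after thinning (0.0944), within 200 kb (0.1754) and in 2 kb with loess offsets (0.1155).

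Of 15 tested MAF and ISX targets 1 was higher, Dgat1, a triglyceride synthesis gene, by 0.96 ± 0.26 (SE, edgeR adjusted p = 0.00363), a call that ended without control library 2 (0.0611) or RANKL library 3 (0.0532). None of these targets was lower (2 at an unadjusted p under 0.05, 0 with DESeq2). In 2 kb 3 of 18 were higher and none lower, and with loess offsets 4 were higher and none lower. None of 12 tested genes linked to GATA4 and to jejunal or ileal position was called with edgeR (2 lower at an unadjusted p under 0.05, 0 with DESeq2, median -0.23). None of 7 tested gastric and foregut genes was called either (0 at an unadjusted p under 0.05, 0 with DESeq2, median -0.07). In 2 kb 1 of 16 of the regional genes was higher and 2 were lower, and of 15 gastric and foregut genes 3 were higher and 1 lower. With loess offsets in 2 kb 1 regional gene was higher and 1 lower, and 2 gastric and foregut genes were higher and 1 lower. A gene's nearest windows need not be those that control it, and accessibility is not expression.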

How the data were processed

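For 6 ATAC-seq libraries (n = 3 per group, 50000 cells each, 38-bp reads per the labels' protocols) the authors deposited whole read counts per 200-bp window, 55056 in all, and a score per 2-kb window around nearly all of the same centres. The values of this deposited score fit a natural logarithm of count + 1 that was standardised within each library, and the 2-kb counts were recovered from it. The builds mm10 and GRCm38 are named in the submitters' processing notes, as are MACS2 2.2.7, DESeq2 1.34.0, Picard, BWA 0.7.17 and fastp 0.20.1. The choice of windows is not given in the sources used here, nor is any Tn5 shift of read ends or handling of duplicates. Fixed windows can miss parts of broad regions.

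Windows were assigned to the nearest protein-coding gene end (RefSeq, GRCm38.p6, 21883 genes) within 50 kb, and starts are counted from 1. A window may regulate a gene other than its nearest. All tests used the edgeR 4.0.16 quasi-likelihood fit (R 4.3.3, TMM, filterByExpr, robust, no covariates, Benjamini-Hochberg adjustment over all features). SE is the absolute log2 fold change over the root of F. Alternatives were DESeq2 1.42.0, other scalings and filters, loess offsets, thinning to the smallest library, other distances, 2-kb counts, the experiment number as a block, and leaving out each library. The script was run on simulated data, which had no trend of the fold change with level and no difference in read focus. That run therefore says nothing of how these features act on the calls. The labels give both groups the experiment numbers 1 to 3 but do not state a blocked model, so the main fit has no block. Deviations of same-numbered libraries from their group means correlated at -0.0491, 0.0085 and -0.0311 across gene sums. With 3 libraries per group these values cannot show that pairing is absent. The members, the 11 gene lists and the rule for named genes were chosen with earlier results of these data known. All 10 members were named, with every window called in either width and, in each list, all called genes where there were 5 or fewer and otherwise the 4 with the smallest adjusted p. Totals of 322173 to 976881 counts limit single windows, which had a median of 3 to 11 counts.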

Additional observations from a re-analysis of the deposited data

How the results depend on the processing

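Isx kept its direction in every alternative run, and Klf4 in all but the sums within 5 and 1 kb. Of the 10 genes, 2 were lower in the main test; DESeq2, the replicate block and thinning gave 1, loess offsets and sums within 5 or 1 kb gave 0, 2-kb counts gave 4 and 2-kb counts with loess offsets 0. Leaving out 1 library gave 1 to 2 lower and 0 to 1 higher, and 2-kb counts with loess offsets 1 higher. The 4 lower genes at 2 kb became 2 to 4 without 1 library and 0 with loess offsets, where 1 was higher. Over all genes, the 869 higher and 1052 lower gene sums became 408 and 487 with DESeq2, 405 and 549 after thinning, 385 and 498 within 5 kb, 219 and 300 within 1 kb, 1466 and 1920 in 2 kb, 1527 higher in 2 kb with loess offsets, and 545 to 848 higher and 672 to 933 lower without 1 library. The 2166 higher and 2169 lower windows became 1264 and 1039 with DESeq2, 629 and 763 after thinning, 4181 and 5076 in 2 kb, 3895 higher in 2 kb with loess offsets, and 1337 to 2802 higher without 1 library.

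Pairing the groups by experiment number (the replicate block) gave 704 higher and 890 lower gene sums. It ended the calls of the Klf4 sum (-0.51), the Mafg sum (1.15), the window 27627 bp from Isx (-0.50) and the window 72443 bp from Klf5 (1.60), and changed no other call of a named gene sum or 200-bp window.

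For the named genes and windows, signs turned without passing the test as follows on the log2 scale. Gene sums within 5 and 1 kb had 0.104 and 0.082 for Klf4, 0.067 and 0.044 for Prdm1, -0.57 and -0.59 for Onecut1, and within 5 kb 0.0051 for Klf13. Thinning gave -0.11 for Gata4, -0.089 for the Klf4 start window and 0.11 for the Cdx2 window at 1050 bp. Leaving out 1 library gave ranges of -0.095 to 0.093 for Gata4, -0.16 to 0.020 for Gata6, -0.029 to 0.82 for the Gata4 window at 10624 bp, -0.12 to 0.43 for the Klf4 start window, -0.21 to 0.027 for the Cdx2 window at 16 bp and -0.23 to 0.075 for the Prdm1 window at 10430 bp. Windows not described above also crossed 0 without 1 library, such as those of Cdx2 at 7605 bp (-0.26 to 0.17) and Gata4 at 26345 bp (-0.13 to 0.16). In 2 kb, Gata6 had 0.041 (0.16 with loess offsets, -0.047 to 0.11 without 1 library) and Klf5 -0.013 (0.17 with loess offsets, 0.046 with library totals, 0.0028 with the block, -0.049 to 0.051 without 1 library). Maf had -0.0065 to 0.14 in 2 kb without 1 library. The 2-kb counts gave -0.068 for the Prdm1 window at 21544 bp, -0.21 for that at 934 bp (-0.029 with loess offsets), -0.037 for the Klf5 window at 175 bp, -0.27 for the Klf4 start window (-0.017 with loess offsets) and -0.12 for the Maf window at 1067 bp. With loess offsets in 2 kb the windows had 0.12 at Gata6 (43 bp), 0.080 at Cdx2 (16 bp) and 0.0052 at Isx (566 bp). The Maf sum within 200 kb passed the test with the opposite sign (-0.33). The causes were not tested.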
